A study of Mus musculus with 60 samples.

Results

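The 37 genes described here encode the proteins by which the heart takes up fatty acids, activates them, carries them into mitochondria and oxidizes them. They were chosen by symbol, and the Ensembl identifier of each was matched to 1 of the 53700 gene rows of the count table. All 37 passed the filter on low counts, among 18119 genes that did. Hearts came from male mice on the C57BL/6 background, 12 weeks old. The dnOGAh mice carried the αMHC-rtTA transgene, a doxycycline-dependent transactivator driven by the cardiomyocyte promoter of α-myosin heavy chain, and TRE-EGFP-dnOGA, which the transactivator turns on and which encodes a rat OGA splice variant acting as a dominant negative O-GlcNAcase. The CON mice carried αMHC-rtTA alone. Doxycycline was given to both genotypes for 2 weeks from 10 weeks of age, so the transactivator and the drug were common to all hearts, and the transgene was limited to cardiomyocytes while RNA came from all cells of the tissue. Collection was every 4 h from ZT0 (lights on) to ZT20, with 5 hearts per genotype and time, and each of the 60 hearts gave 1 library.

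Fatty acids are the main fuel of the adult heart. Lipoprotein lipase frees them from circulating triglyceride, CD36 and transport proteins bring them across the membrane, binding proteins carry them, and acyl-CoA synthetase traps them as acyl-CoA. Malonyl-CoA inhibits carnitine palmitoyltransferase 1, the gate through which long-chain acyl groups pass on carnitine into mitochondria. There each turn of the beta-oxidation spiral (a dehydrogenase, a hydratase, a second dehydrogenase and a thiolase) shortens the chain and passes electrons on, those of the first step through the electron transfer flavoprotein. Many of these genes are known targets of the nuclear receptor PPARα with the coactivator PGC-1α.

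The depth was 9162859 to 82938039 gene counts in CON and 14540266 to 54766622 in dnOGAh libraries, and levels are given as CPM, the count per 1e+06 counts of the library after TMM scaling. Oga, to which reads of the transgene can be assigned, had 46.7 to 72.2 CPM in the 30 CON libraries and 182.3 to 837 CPM in 29 of the 30 dnOGAh libraries. In the exception, the library labelled dnOGAh ZT12 replicate 3, Oga was at 70.1 CPM, within the CON range, and for 22 of the 33 members called lower in dnOGAh hearts its level was no lower than the lowest of 29 CON libraries, CON ZT4 replicate 4 being left out. In ZT4 replicate 4 of either genotype mitochondrial transcripts made up most counts (77.6% in CON, 66.0% in dnOGAh), against medians of 30.7% in CON and 17.2% in dnOGAh libraries. In dnOGAh ZT12 replicate 3 they made up 17.5%, and in CON libraries 22.8% or more. For 28 of the 37 genes CON ZT4 replicate 4 was the lowest CON library, and for 26 dnOGAh ZT12 replicate 3 was the highest dnOGAh library. These 3 libraries stood apart, and results are given with and without them where they bear on the value.

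Transcripts of fatty acid uptake and oxidation were lower in dnOGAh hearts at nearly every step of the pathway. Of the 37 genes, 33 were lower, 2 were higher (Angptl4 and Fabp5) and 2 did not pass the test (Cpt1a and Ucp2). The counts of Cpt1b and Etfb, both among the 33, are uncertain for reasons given below. The muscle form of carnitine palmitoyltransferase 1, Cpt1b, therefore has no clear value here. Over all tested genes 31.9% were called lower and 38.8% higher. The fall was over 2-fold for 24 of the 37, compared with 6.56% of all tested genes. The median log2 fold change of the 37 was -1.11, beside 0.06 over all tested genes, and the median gene stood at 46.2% of its CON level. Summed over the 37 genes, CPM ran from 13642 to 29457 (median 24449) in CON libraries and from 6386 to 27426 (median 10706) in dnOGAh libraries. The lowest CON sum was that of ZT4 replicate 4 and the next 21618, and the highest dnOGAh sum was that of the library labelled ZT12 replicate 3 and the next 14243, so the sums overlapped through these libraries. These calls are from edgeR (quasi-likelihood, adjusted over all tested genes), with the genotype difference averaged over the 6 times. No member was separated by genotype in every heart (0.121% of all genes were lower and 0.938% higher without overlap). Without dnOGAh ZT12 replicate 3, Lpl, Acacb and Mlycd were lower with no overlap (3 members, and 0.74% of all genes) and 0 members were higher (3.55%). Without all 3 libraries that stood apart 24 were lower with no overlap (4.27% of all genes) and 0 higher (6.93%), and Slc27a1, Fabp3, Acsl1, Slc22a5, Cpt1b, Acadvl, Ehhadh, Etfb and Ucp3 were the members called lower whose ranges still met.

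**Figure D1:**
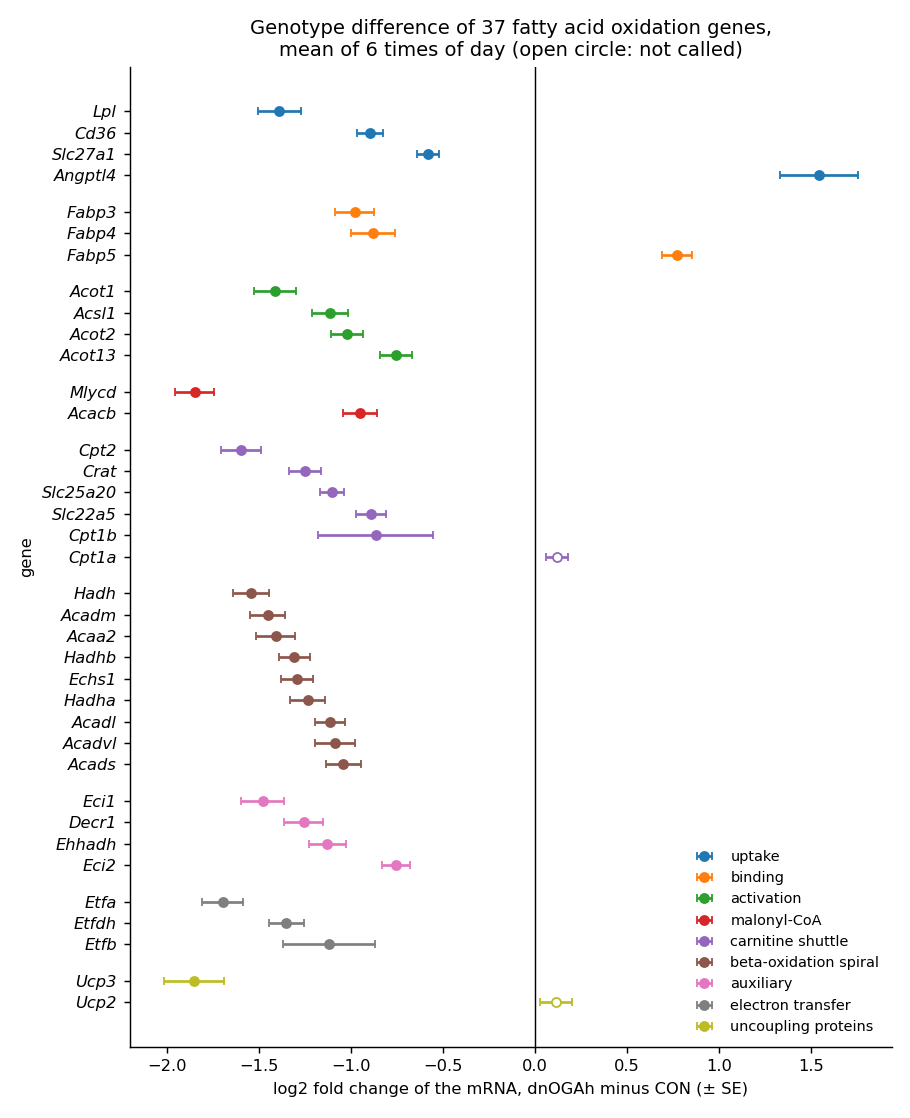
Each point is the log2 fold change of 1 gene in dnOGAh relative to CON hearts, averaged over the 6 times of day (30 hearts per genotype), with bars of 1 standard error, and genes are grouped by role; open circles did not pass the test. All genes but Angptl4, Fabp5, Cpt1a and Ucp2 lie left of 0, from -0.58 for Slc27a1 to -1.85 for Mlycd and Ucp3.

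In bulk RNA, fewer cardiomyocytes and less RNA per cardiomyocyte cannot be told apart. Of 20 cardiomyocyte structural genes 18 were lower and 2 higher in dnOGAh hearts (median log2 fold change -0.83), with Pln (log2 fold change -1.66, SE 0.104), Myl2 (log2 fold change -1.53, SE 0.145) and Tnni3 (log2 fold change -1.32, SE 0.134) lower by most. The 2 higher were Des (log2 fold change 1.10, SE 0.0982), which encodes desmin, and Cryab (log2 fold change 0.21, SE 0.08), a small heat shock protein gene, named here for their direction after their values were seen. The summed CPM of the 20 ran from 47084 to 96918 in CON and from 32562 to 123138 in dnOGAh libraries. The highest was that of dnOGAh ZT12 replicate 3, above every CON library. Without the 3 libraries that stood apart the sums ran from 78681 to 96918 and from 32562 to 61519. Of 13 macrophage markers 12 were higher (median 2.46, summed CPM 352 to 652 in CON and 700.0 to 4346 in dnOGAh libraries), and of 12 activated fibroblast markers 11 were higher (median 3.63, summed CPM 332 to 689 and 499 to 8291). The lowest fibroblast sum among dnOGAh libraries was that of the library labelled ZT12 replicate 3, within the CON range, and the next was 1339 in ZT4 replicate 4. The macrophage sum of dnOGAh ZT12 replicate 3 was 838, above every CON library. Without the 3 libraries that stood apart the dnOGAh sums began at 1153 for macrophages and 3345 for fibroblasts. The largest changes among them were those of Fcgr1 (log2 fold change 4.32, SE 0.191), Cd68 (log2 fold change 3.57, SE 0.16) and Adgre1 (log2 fold change 3.17, SE 0.15) for macrophages and of Tnc (log2 fold change 6.63, SE 0.23), Timp1 (log2 fold change 6.01, SE 0.229) and Cthrc1 (log2 fold change 5.52, SE 0.293) for fibroblasts. When libraries were scaled to the 20 cardiomyocyte structural genes, Des and Cryab included, in place of all genes, the median log2 fold change of all genes moved from 0.06 to 0.95 and that of the 37 from -1.11 to -0.26. Of 9 markers of skeletal muscle 2 were lower and 3 higher (median 0.11), with Myh7 (log2 fold change -1.72, SE 0.199), Mb (log2 fold change -1.32, SE 0.141) and Tnnt3 (log2 fold change 1.09, SE 0.208), of which Myh7 and Mb, at medians of 372 and 8130.0 CPM in CON hearts, are heart genes too, and the fast myosins Myh1, Myh2 and Myh4 were under the filter. Tnnt3 was very low, at medians of 0.594 CPM in CON and 1.03 CPM in dnOGAh hearts. Of 6 erythroid markers 5 were lower (median -0.85), with Hbb-bt (log2 fold change -0.99, SE 0.224), Hbb-bs (log2 fold change -0.99, SE 0.207) and Hba-a1 (log2 fold change -0.96, SE 0.21). In the cardiomyocyte scaling 24 of the 37 were still called lower, where 5.15% of all genes were lower and 82.3% higher. Cd36, Fabp4, Acacb, Slc22a5, Cpt1b, Acot13 and Etfb no longer passed, and Slc27a1 (0.32) and Eci2 (0.11) were called higher, with Angptl4, Fabp5, Cpt1a and Ucp2.

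At the capillary wall, the lipase and its inhibitor moved in opposite directions. Lpl, the lipoprotein lipase, had a lowest, median and highest level of 3924, 5279 and 9169 CPM in the 30 CON hearts and of 1170.0, 1889 and 8254 CPM in the 30 dnOGAh hearts (log2 fold change -1.39, SE 0.116, adjusted p = 6.86e-16). The highest dnOGAh value was that of ZT12 replicate 3, and without it the groups did not overlap, the next being 3119.8 CPM. Angptl4, a secreted inhibitor of that lipase, was a low transcript, at 2.10, 12.4 and 50.3 CPM in CON and 4.71, 32.5 and 101 CPM in dnOGAh hearts (log2 fold change 1.54, SE 0.212, adjusted p = 5.18e-09). It was higher on average but the groups overlapped widely, and its SE was 0.212 against 0.0583 to 0.163 for the called members other than Angptl4, Cpt1b and Etfb. Cd36, the fatty acid translocase, had medians of 1076 CPM in CON and 603 CPM in dnOGAh hearts (log2 fold change -0.90, SE 0.0713, adjusted p = 1.13e-16), and without the 3 libraries that stood apart its levels were 883 to 1390.4 CPM in CON and 371 to 853 CPM in dnOGAh hearts. Slc27a1 (FATP1), a fatty acid transport protein, fell least among the members called lower, from a median of 207 to 138 CPM (log2 fold change -0.58, SE 0.0583, adjusted p = 4.5e-13).

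The fatty acid binding proteins also moved in opposite directions. Fabp3, the heart form, was the most abundant of the 37 transcripts per kilobase of exon, with medians of 5208 CPM per kilobase in CON and 2739 in dnOGAh hearts. In CON hearts Acaa2 at 662, Acadl at 508 and Lpl at 504 followed. The length is that of all annotated exons of a gene joined, 10.5 kb for Lpl and 1.52 kb for Acaa2. It can exceed the length of the mRNA, so the order below Fabp3 depends on the annotation. Levels of Fabp3 were 1757, 4286 and 6049 CPM in CON and 1006, 2254 and 5614 CPM in dnOGAh hearts (log2 fold change -0.98, SE 0.108, adjusted p = 8e-12), and 1 of 28 dnOGAh hearts reached the CON range without the 3 libraries that stood apart (3553 to 6049 CPM in CON and 1006 to 3758 CPM in dnOGAh hearts). Lpl and Fabp3 together made up 40.5% of the summed CPM of the 37 genes in the median CON library and 38.9% in the median dnOGAh library. Fabp4, which is known from adipocytes and endothelium, had medians of 666 CPM in CON and 359.8 CPM in dnOGAh hearts (log2 fold change -0.88, SE 0.12, adjusted p = 3.58e-09). Fabp5, known from epidermis, was higher in dnOGAh hearts, at 29.1, 37.4 and 55.5 CPM in CON and 36.6, 59.1 and 118 CPM in dnOGAh hearts (log2 fold change 0.77, SE 0.0804, adjusted p = 1.45e-12). Above the CON median lay 29 of 30 dnOGAh hearts and above every CON heart 19, so the groups overlapped in part. Beside Fabp4, 13 of 14 endothelial markers were lower (median -0.64, Aqp1 (log2 fold change -1.20, SE 0.115), Rgcc (log2 fold change -1.17, SE 0.107) and Kdr (log2 fold change -0.92, SE 0.0966) by most), with summed CPM of 1330 to 3771 in CON and 603 to 3004 in dnOGAh libraries. Both maxima were in ZT4 replicate 4, and without the 3 libraries that stood apart the highest sums were 1903 in CON and 1615 in dnOGAh libraries. Of 9 adipocyte markers 4 were lower and 1 higher (median -0.48), with Adrb3 (log2 fold change 1.58, SE 0.467), Thrsp (log2 fold change -1.16, SE 0.103) and Pnpla2 (log2 fold change -1.15, SE 0.0694) changed by most. Adrb3 was very low, at medians of 0 CPM in CON and 0.236 CPM in dnOGAh hearts. The defining adipocyte marker Adipoq had medians of 0.443 CPM in CON and 0.55 CPM in dnOGAh hearts and did not pass (adjusted p = 0.351 in edgeR). Cidec, Retn and Cfd did not pass either. Of the 4 lower markers, Pnpla2, Thrsp and Lipe had CON medians of 434, 51.3 and 35.4 CPM, far above that of Adipoq. The other, Plin1, had a CON median of 0.419 CPM. The macrophage markers, most of which were higher in dnOGAh hearts, are given above. The part of endothelium, adipocytes and macrophages in the values of Fabp4 and Fabp5 was not tested.

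Acsl1, the main long-chain acyl-CoA synthetase of the heart, had medians of 579 CPM in CON and 282 CPM in dnOGAh hearts (log2 fold change -1.11, SE 0.0961, adjusted p = 2.21e-15). The thioesterases, which release the fatty acid from acyl-CoA again, were also lower. Acot1, a cytosolic thioesterase, had levels of 11.3, 21.0 and 31.1 CPM in CON and 2.96, 8.62 and 18.1 CPM in dnOGAh hearts (log2 fold change -1.41, SE 0.115, adjusted p = 2.29e-16), with no overlap without the 3 libraries that stood apart (14.3 to 31.1 CPM in CON and 2.96 to 11.9 CPM in dnOGAh hearts). Acot2, its mitochondrial counterpart, fell as well (log2 fold change -1.02, SE 0.0873), as did Acot13, a thioesterase associated with mitochondria (-0.75, SE 0.0866). Acot1 and Acot2 are near-identical neighbors in a cluster with Acot3, Acot4 and Acot6, so the split of reads between them is uncertain.

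Transcripts of the malonyl-CoA enzymes Acacb and Mlycd were both lower, that of Mlycd, which removes malonyl-CoA, by more. Mlycd, malonyl-CoA decarboxylase, had levels of 62.1, 127 and 179.6 CPM in CON and 20.6, 34.2 and 102 CPM in dnOGAh hearts (log2 fold change -1.85, SE 0.108, adjusted p = 4.25e-22), 27.8% of the CON level. The highest dnOGAh value was that of ZT12 replicate 3, and without it the genotypes did not overlap (next highest 55.0 CPM). Acacb, acetyl-CoA carboxylase 2, which makes malonyl-CoA at the outer mitochondrial membrane, had medians of 268 CPM in CON and 146 CPM in dnOGAh hearts (log2 fold change -0.95, SE 0.0904, adjusted p = 7.07e-14). The log2 ratio of Acacb to Mlycd within a heart was 1.05 ± 0.26 in CON and 1.93 ± 0.31 in dnOGAh hearts (SD, n = 30 each), and 20 of 30 dnOGAh hearts lay above every CON heart. The highest CON ratio was that of ZT4 replicate 4, and without the 3 libraries that stood apart 27 of 28 dnOGAh hearts lay above every CON heart.

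The 250 bases before the annotated start of Mlycd (chr8:119394644-119394893, GRCm38.p6, + strand, from RefSeq) are shown because Mlycd had the largest fall but for Ucp3; capitals mark its 3 matches to CCAAT, on either strand (ATTGG on the other).
Mlycd upstream: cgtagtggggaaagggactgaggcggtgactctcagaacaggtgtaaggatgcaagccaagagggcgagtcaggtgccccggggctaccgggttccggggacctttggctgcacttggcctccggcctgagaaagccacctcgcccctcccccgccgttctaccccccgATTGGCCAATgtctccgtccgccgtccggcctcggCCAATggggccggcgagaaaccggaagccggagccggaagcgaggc

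CCAAT boxes were found, on either strand, in 15 of 31 RefSeq promoter windows (250 bases before to 50 after a start) that matched 28 of the 37 genes, 48.4% of them, and in 37.4% of 32851 mouse windows of the same length. The PPAR element DR1 (AGGTCANAGGTCA, both strands) was in 0 of the 31 and in 0.0396% of all windows, and in the looser form AGGNCANAGGNCA in 0 and 0.381%. The estrogen-related receptor element TCAAGGTCA was in 0 of the 31 and in 0.423% of all windows. Of clock elements, the E-box CACGTG was in 1 window, of Slc27a1 (3.23%, and 7.15% of all), and the D-box TTATGTAA in 0 (0.938% of all). The letters alone were searched, in these short windows only.

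Along the carnitine route, Cpt2, which rebuilds acyl-CoA inside the mitochondrion, had the largest fall. Its levels were 108, 309.8 and 367 CPM in CON and 55.2, 102 and 292 CPM in dnOGAh hearts (log2 fold change -1.60, SE 0.109, adjusted p = 2.98e-19), and without the 3 libraries that stood apart 262 to 367 CPM in CON and 55.2 to 154 CPM in dnOGAh hearts. The carrier Slc25a20 (-1.10, SE 0.065), the carnitine transporter Slc22a5 (-0.89, SE 0.0808) and carnitine acetyltransferase Crat (-1.25, SE 0.0869) were lower too, as log2 fold changes. Cpt1a, the liver form of carnitine palmitoyltransferase 1, did not follow them, at 21.7, 30.8 and 36.2 CPM in CON and 19.4, 35.3 and 48.9 CPM in dnOGAh hearts (log2 fold change 0.12, SE 0.0614, adjusted p = 0.079). The groups overlapped, with 14 of 30 dnOGAh hearts above every CON heart, and the call depended on the libraries, the scaling and the tool. Cpt1a was called higher without dnOGAh ZT12 replicate 3 (log2 fold change 0.14, SE 0.0577, adjusted p = 0.0283 in edgeR), and, with all libraries kept, under relative log expression scaling (0.15, adjusted p = 0.026) and in DESeq2 (0.15, adjusted p = 0.0258). By time it was called higher at ZT8 alone (0.43, SE 0.15, adjusted p = 0.016 in edgeR), with 28.0 ± 3.26 CPM in CON and 37.7 ± 7.43 CPM in dnOGAh hearts (SD, n = 5). Cpt1b, the muscle form, had only 0 to 1.57 CPM in CON and 0 to 0.923 CPM in dnOGAh hearts (log2 fold change -0.86, SE 0.312, adjusted p = 0.0119). In GENCODE M21, an annotation of the earlier GRCm38 build, 81.4% of its exon length is shared on the same strand with Gm44502, which had 0 counts in every library, so the Cpt1b count is uncertain and does not give the level of its mRNA.

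All 9 genes of the beta-oxidation spiral were lower in dnOGAh hearts, by log2 fold changes from -1.54 to -1.04. The acyl-CoA dehydrogenases, ordered by the chain length they act on, were Acadvl (-1.09, SE 0.107), Acadl (-1.11, SE 0.0809), Acadm (-1.45, SE 0.0951) and Acads (-1.04, SE 0.0961). Medians of Acadm were 1031 CPM in CON and 369 CPM in dnOGAh hearts, and those of Acadl 1019 CPM in CON and 476 CPM in dnOGAh hearts. Hadh, the short-chain 3-hydroxyacyl-CoA dehydrogenase, fell by most, from 239, 674 and 770.2 CPM in CON to 126, 227 and 563 CPM in dnOGAh hearts (log2 fold change -1.54, SE 0.0992, adjusted p = 2.57e-20). Without the 3 libraries that stood apart its levels were 586 to 770.2 CPM in CON and 126 to 311 CPM in dnOGAh hearts, with no overlap. The hydratase Echs1 (-1.29, SE 0.0857) and the thiolase Acaa2 (-1.41, SE 0.107) fell by similar amounts. Of Acadvl, 42.9% of the exon length overlaps Dvl2 on the opposite strand, and since the strand setting of the counting is not given in the sources used here, its counts carry that uncertainty.

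Hadha and Hadhb, the subunits of the mitochondrial trifunctional protein for long chains, fell together (log2 fold change -1.23, SE 0.0949 for Hadha and -1.31, SE 0.0861 for Hadhb). Medians of Hadha were 1359 CPM in CON and 579 CPM in dnOGAh hearts, and those of Hadhb 1078 CPM in CON and 443 CPM in dnOGAh hearts. Within a heart the log2 ratio of Hadha to Hadhb was 0.31 ± 0.16 in CON and 0.37 ± 0.14 in dnOGAh hearts (SD, n = 30 each). The genes lie head to head on chromosome 5, with RefSeq starts 273 bases apart, and the 250 bases before the start of Hadhb (chr5:30155003-30155252, GRCm38.p6, + strand), which lie between both starts, are shown for that reason. They hold no CCAAT on either strand, so no letters are in capitals.
Hadhb upstream: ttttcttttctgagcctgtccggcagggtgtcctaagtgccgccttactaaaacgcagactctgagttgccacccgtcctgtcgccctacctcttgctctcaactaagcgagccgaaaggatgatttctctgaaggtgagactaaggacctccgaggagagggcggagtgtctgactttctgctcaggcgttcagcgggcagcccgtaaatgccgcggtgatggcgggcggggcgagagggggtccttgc

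The auxiliary enzymes, which handle double bonds that the spiral alone cannot, were lower as a group of 4. Eci1, enoyl-CoA isomerase 1, had levels of 162, 351 and 459 CPM in CON and 60.8, 128 and 465 CPM in dnOGAh hearts (log2 fold change -1.48, SE 0.117, adjusted p = 9.39e-17). Its highest dnOGAh value was in ZT12 replicate 3, above every CON heart, and the next was 172 CPM. Decr1, the 2,4-dienoyl-CoA reductase, was lower (log2 fold change -1.26, SE 0.106), and so was the isomerase Eci2 (-0.75, SE 0.0754). Ehhadh, the bifunctional enzyme of peroxisomes, was low in both genotypes, with medians of 9.39 CPM in CON and 4.66 CPM in dnOGAh hearts (log2 fold change -1.13, SE 0.101, adjusted p = 7.32e-15).

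Transcripts that pass electrons from the first dehydrogenation to ubiquinone fell with the dehydrogenases. Etfa, the alpha subunit of the electron transfer flavoprotein, had levels of 249, 714 and 815 CPM in CON and 117, 206 and 595 CPM in dnOGAh hearts (log2 fold change -1.70, SE 0.112, adjusted p = 7.94e-20), 30.9% of CON. Without the 3 libraries that stood apart its levels were 644 to 815 CPM in CON and 117 to 366 CPM in dnOGAh hearts, which did not overlap. Etfdh, the ubiquinone oxidoreductase that takes electrons from it, fell by less (log2 fold change -1.35, SE 0.0946, adjusted p = 7.91e-19), and in 26 of 30 dnOGAh hearts the Etfa to Etfdh ratio lay below every CON heart (28 of 28 without the 3 libraries that stood apart). Etfb, the beta subunit, had 17.5, 42.5 and 88.4 CPM in CON and 2.54, 15.9 and 185 CPM in dnOGAh hearts (log2 fold change -1.12, SE 0.251, adjusted p = 8.54e-05), a wide spread. Its exons share 58.2% of their length on the same strand with Gm45233 and Mir7051 in GENCODE M21, and the count is uncertain for that reason.

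The uncoupling proteins parted. Ucp3, which is known to rise with fatty acid supply in muscle, had levels of 19.0, 37.3 and 93.5 CPM in CON and 3.32, 11.8 and 29.0 CPM in dnOGAh hearts (log2 fold change -1.85, SE 0.163, adjusted p = 5.18e-15), 27.7% of CON. Its CON levels varied widely and overlapped those of dnOGAh hearts also without the 3 libraries that stood apart (19.0 to 93.5 CPM in CON and 3.32 to 26.7 CPM in dnOGAh hearts). Ucp2, found in many cell types including immune cells, had levels of 102, 222 and 304 CPM in CON and 99.2, 236 and 417 CPM in dnOGAh hearts, where the groups overlapped (log2 fold change 0.11, SE 0.087, adjusted p = 0.237). The markers of macrophages that were higher in these hearts are given above, and their part in the Ucp2 level was not tested.

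**Figure D2:**
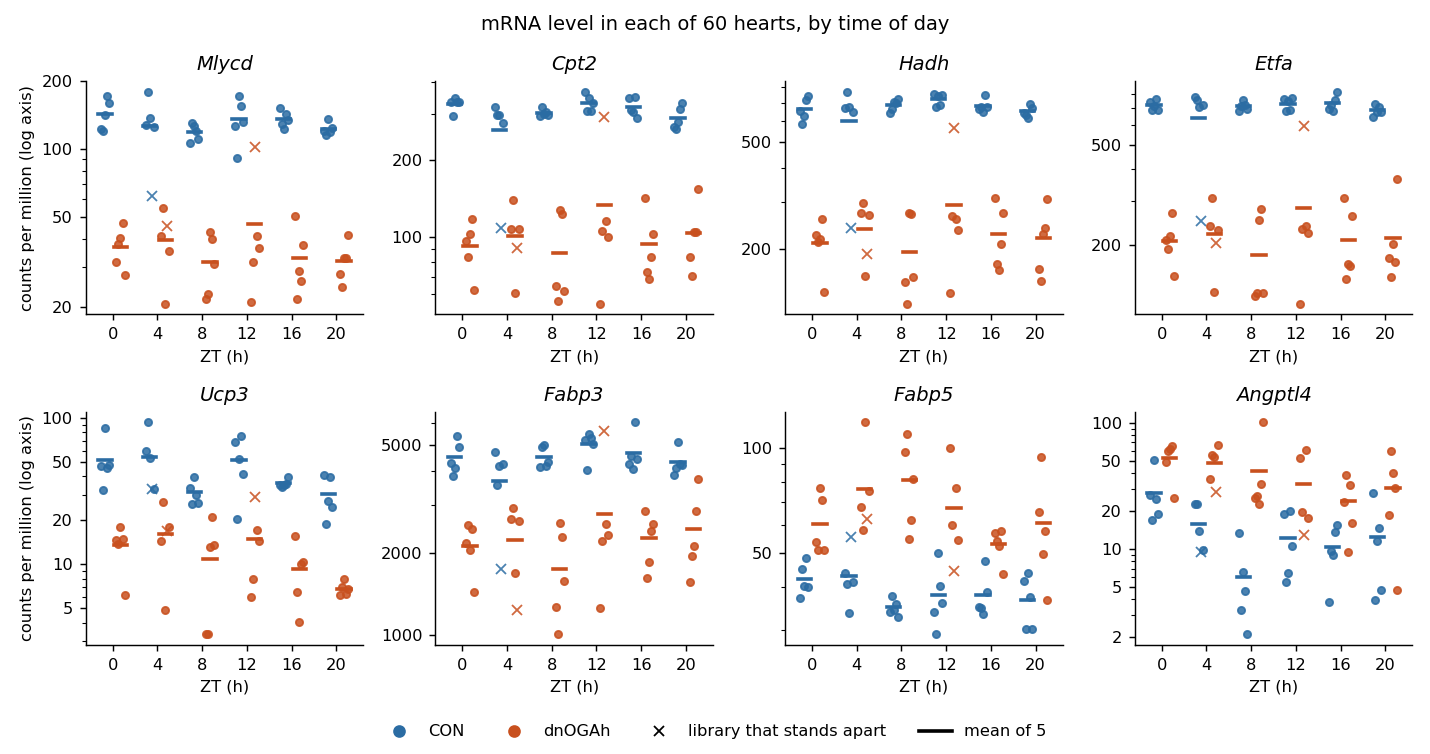
CPM (log axis) of 8 genes in each of the 60 hearts against time of day, CON in blue and dnOGAh in orange, with bars for the mean of 5 hearts and crosses for the 3 libraries that stood apart. The first 6 genes are lower in dnOGAh hearts at every time, and Fabp5 and Angptl4 are higher, with overlap.

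Ratios between members within the same heart do not depend on library scaling. The 6 shown were picked after the values were seen and are given with no test. The log2 ratio of Angptl4 to Lpl was -8.92 ± 1.03 in CON and -5.92 ± 1.19 in dnOGAh hearts (SD, n = 30 each), with 25 of 30 dnOGAh hearts above every CON heart. That of Fabp5 to Fabp4 was -4.24 ± 0.27 in CON and -2.56 ± 0.79 in dnOGAh hearts, with 27 of 30 above. That of Ucp2 to Ucp3 was 2.45 ± 0.72 in CON and 4.50 ± 1.06 in dnOGAh hearts, with 24 of 30 above. That of Etfa to Etfdh went the other way, 0.22 ± 0.09 in CON and -0.15 ± 0.14 in dnOGAh hearts. Only Hadha to Hadhb, of the 6, had nearly the same mean in both genotypes, and 1 dnOGAh heart lay above the CON range.

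**Figure D3:**
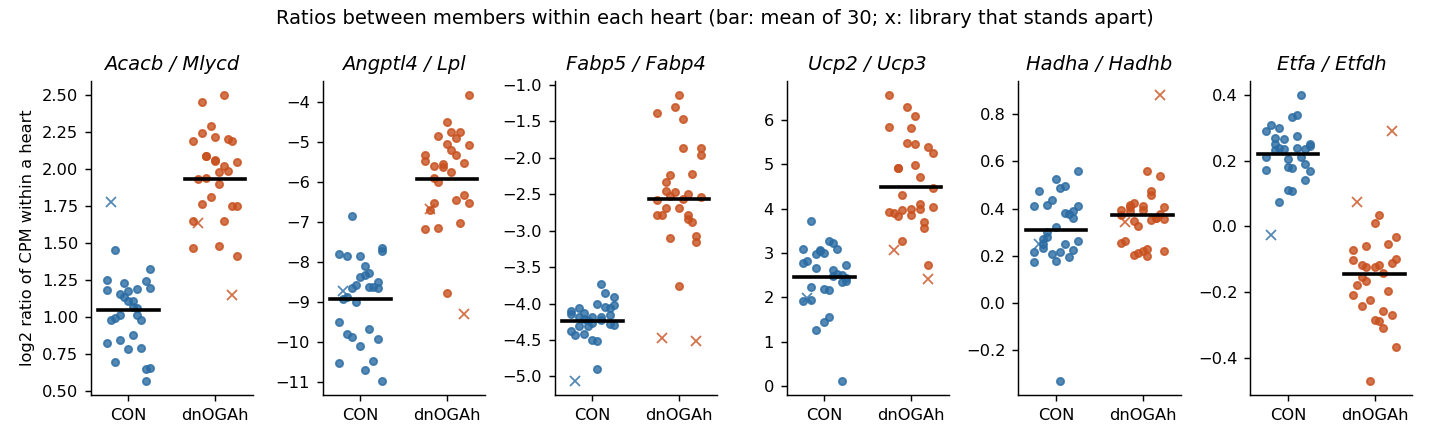
Log2 ratio of CPM between 2 members in each heart, 30 CON (blue) and 30 dnOGAh (orange), with black bars for the mean and crosses for the 3 libraries that stood apart. The first 4 ratios are higher and Etfa to Etfdh is lower in dnOGAh hearts, while Hadha to Hadhb overlaps almost fully.

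The genotype difference was present throughout the day. At ZT0, ZT4, ZT8, ZT12, ZT16 and ZT20 there were 31, 30, 32, 30, 32 and 31 members lower, where 18.9%, 14.2%, 21.2%, 13%, 17.7% and 16.3% of all genes were, and 1, 2, 3, 2, 1 and 2 members higher (23.7%, 18.5%, 24.9%, 18.8%, 23.1% and 23.6% of all). Called lower at each of the 6 times were 30 members, and 9.33% of all genes. Cpt1b, Etfb and Fabp4 were the members called lower over the day that failed at some time. At ZT8 the median log2 fold change of the 37 was -1.34 and at ZT12, with the library labelled dnOGAh ZT12 replicate 3 included, -0.96. Mlycd had 119 ± 10.0 CPM in CON and 31.6 ± 9.62 CPM in dnOGAh hearts at ZT8 and 123 ± 7.92 CPM in CON and 32.0 ± 6.48 CPM in dnOGAh hearts at ZT20 (SD, n = 5). Etfa had 715 ± 27.9 CPM in CON and 182 ± 76.0 CPM in dnOGAh hearts at ZT8 (SD, n = 5), and at ZT12 730.2 ± 41.2 CPM in CON and 281 ± 182 CPM in dnOGAh hearts, where the wide dnOGAh SD comes with replicate 3 at 595 CPM. Angptl4 differed by a log2 fold change of 2.82 (SE 0.549, adjusted p = 2.62e-05) at ZT8, with 5.99 ± 4.44 CPM in CON and 41.6 ± 33.2 CPM in dnOGAh hearts. Its difference at ZT0 was 0.93 (adjusted p = 0.135), with 27.6 ± 13.3 CPM in CON and 52.4 ± 16.2 CPM in dnOGAh hearts. No member passed the test of a genotype by time interaction in edgeR (adjusted over all genes, of which 0 passed), 0 had an unadjusted p under 0.05 (2.57% of all genes did), and limma-voom called 0.

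**Figure D4:**
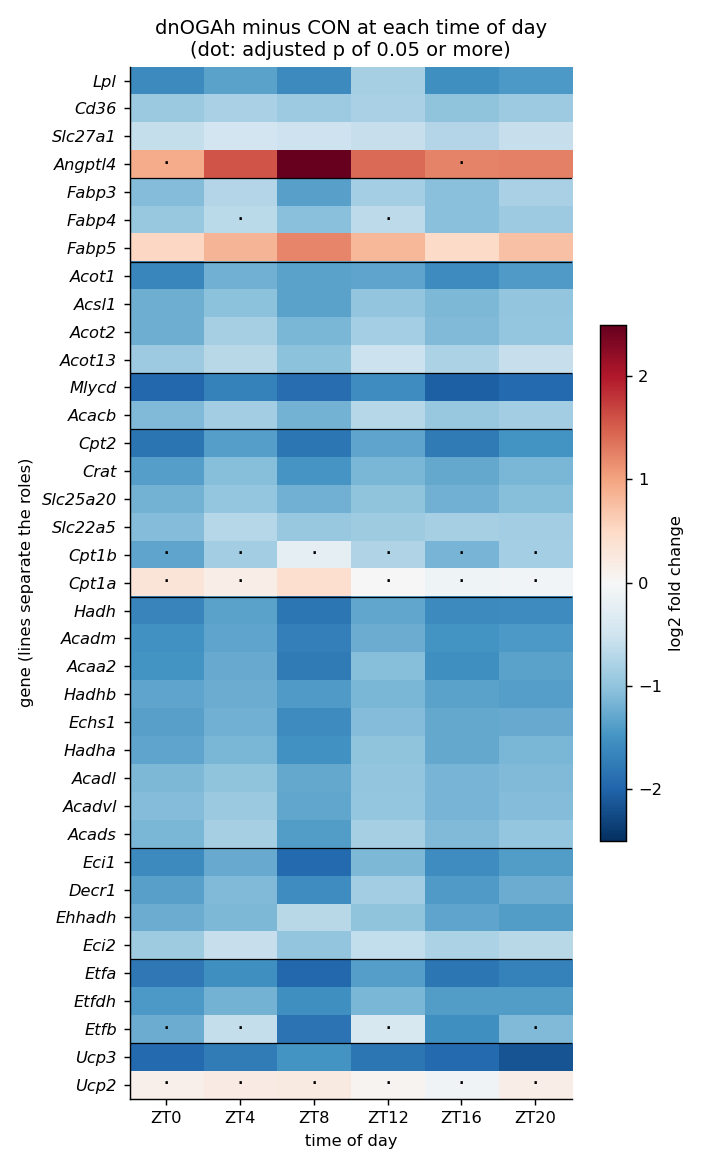
Log2 fold change of each of the 37 genes (rows, grouped by role) in dnOGAh relative to CON hearts at each of the 6 times of day (columns, 5 hearts per genotype), blue for lower and red for higher, with a dot where the adjusted p was 0.05 or more. Columns look alike for most rows, and the dots lie mainly in Cpt1b, Cpt1a, Etfb and Ucp2.

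No member had a 24 h oscillation in either genotype by JTK cycle (q under 0.05), compared with 2.13% of all tested genes in CON and 0.171% in dnOGAh hearts, and the cosinor test in limma called 0 as well. At an unadjusted p under 0.05 there was Lpl alone in CON hearts (q = 0.413; 11.8% of all genes) and Cpt1a alone in dnOGAh hearts (q = 1; 3.77%). The median log2 amplitude of the 37 was 0.10 in CON and 0.09 in dnOGAh hearts, beside 0.16 and 0.12 over all tested genes. Angptl4 had the largest amplitude in both, 0.69 (SE 0.252) in CON with a fitted peak at 23.5 h and 0.62 (SE 0.23) in dnOGAh hearts. Differences among the 6 times of any shape were called by edgeR for 0 members in CON (1.18% of all genes) and 0 in dnOGAh hearts (0.375%). At an unadjusted p under 0.05 there was 1 in CON hearts (11% of all genes), Angptl4 (adjusted p = 0.143). In dnOGAh hearts there were 8 (8.36% of all genes), Lpl, Fabp4, Fabp5, Acot13, Cpt1a, Eci1, Etfb and Ucp3, where the smallest adjusted p was that of Cpt1a (0.0685). Of these 8, Lpl, Acot13, Eci1, Etfb and Ucp3 were highest in dnOGAh ZT12 replicate 3, and Fabp4 in dnOGAh ZT4 replicate 4. The unadjusted p-values are from the fit with all libraries. Limma-voom called 0 in CON and 1 in dnOGAh hearts, Cpt1a (adjusted p = 0.0343). Without dnOGAh ZT12 replicate 3, Cpt1a passed in edgeR. The difference in 24 h rhythm between genotypes was called for 0 members by edgeR (0.0166% of all genes) and by limma-voom, with 0 at an unadjusted p under 0.05 (3.33% of all genes).

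Among dnOGAh hearts, whether members moved with the level of Oga depended on the libraries kept and on the scaling. Over all 30 hearts no member had a slope on log2 Oga that passed in edgeR, with time of day in the fit (2.25% of all genes rose and 2.48% fell). Without dnOGAh ZT12 replicate 3, whose Oga was in the CON range, 22 of 37 rose with Oga (8.78% of all genes) and 1 fell (7.63%), and the median slope was 0.41. In Acadvl the slope was 0.68 log2 units per log2 unit of Oga (SE 0.104, adjusted p = 0.000245) and in Acsl1 0.63 (SE 0.103, adjusted p = 0.000401). Ucp2 was the one that fell (-0.31, SE 0.102, adjusted p = 0.0358), a call that was lost when replicate 1, 2 or 5 was also left out or with cardiomyocyte scaling (slopes -0.29 to -0.25). Dehydrogenases, Hadha, Hadhb, Cpt2, Etfa and Etfdh rose, and Lpl, Fabp4, Angptl4, Fabp5, Mlycd and Cpt1a did not pass. Of the 20 cardiomyocyte structural genes 7 rose and 2 fell with Oga in the same 29 hearts (median slope 0.24). In these hearts 0 members rose with scaling to those genes, and 0 with replicate 5 of each group left out as well, while leaving out replicate 1, 2, 3 or 4 gave 17 to 25. The shares of all genes that rose in these further fits were not worked out.

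**Figure D5:**
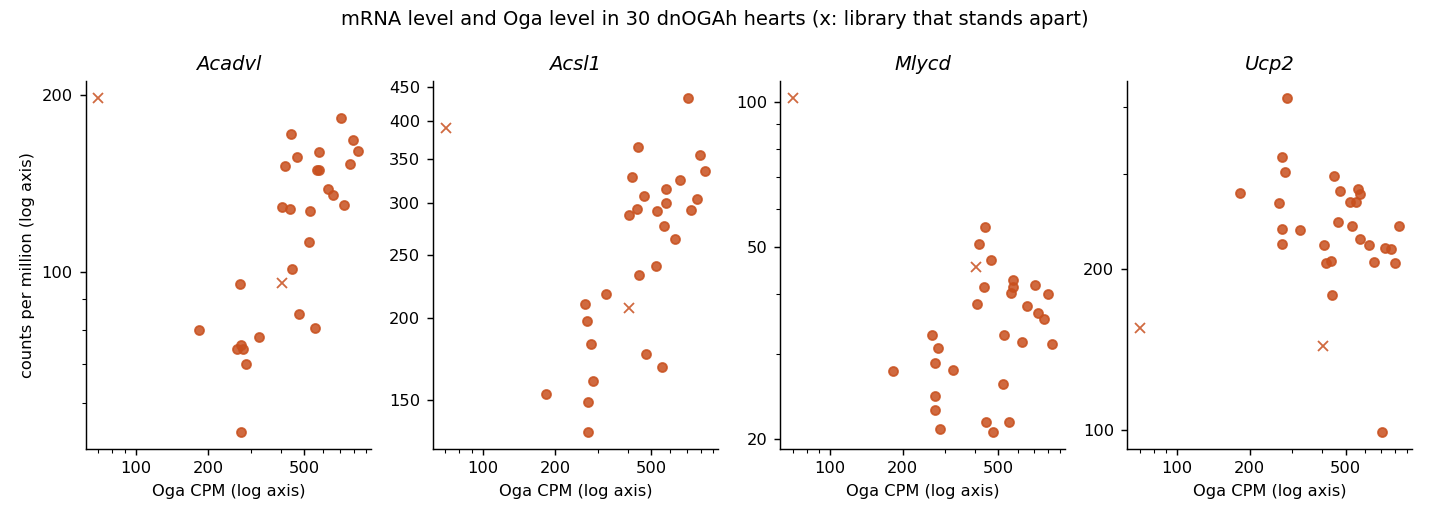
CPM of Acadvl, Acsl1, Mlycd and Ucp2 against CPM of Oga (both log axes) in the 30 dnOGAh hearts, with crosses for the 2 dnOGAh libraries that stood apart. The cross at the far left is ZT12 replicate 3, at 70.1 Oga CPM; among the other hearts Acadvl and Acsl1 are higher where Oga is higher and Ucp2 is lower, a pattern whose calls did not hold without replicate 5 of each group or with cardiomyocyte scaling.

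Other genes of the pathway, from lists drawn up by function, mostly fell in the list of mitochondrial oxidation and less uniformly in the other lists. The lists share some genes. Acaa1a (log2 fold change -0.59, SE 0.05) is counted in both the mitochondrial and the peroxisomal list. The mitochondrial list is therefore not one of mitochondrial genes alone, and it includes enzymes of branched-chain amino acids. Of its 20 genes, 19 were lower and 0 higher (median log2 fold change -0.99). Lower by most were Acsm5 (log2 fold change -2.76, SE 0.271), Acad12 (log2 fold change -1.51, SE 0.108) and Ivd (log2 fold change -1.50, SE 0.105). Of 23 genes of peroxisomal oxidation 18 were lower and 1 higher (median -0.51), among them Acot3 (log2 fold change -1.62, SE 0.288), Ech1 (log2 fold change -1.47, SE 0.114) and Amacr (log2 fold change -1.31, SE 0.0871). Acot3 was very low, at medians of 0.872 CPM in CON and 0.282 CPM in dnOGAh hearts. Of 18 other genes of uptake and activation 9 were lower and 6 higher (median -0.18). The largest changes were those of Slc27a6 (log2 fold change 4.21, SE 0.402) and Slc27a3 (log2 fold change 1.58, SE 0.176), transport proteins at medians of 0 and 1.14 CPM in CON and 0.579 and 3.30 CPM in dnOGAh hearts, and Acsl6 (log2 fold change -1.49, SE 0.121), a synthetase. Of 5 other thioesterases 4 were lower and 1 higher (median -0.36), with Acot7 (log2 fold change -1.22, SE 0.0793), Acot11 (log2 fold change -0.75, SE 0.0825) and Acot9 (log2 fold change 0.73, SE 0.0707). Of 16 PPARα target genes outside the members 11 were lower and 3 higher (median -0.58), with Creb3l3 (log2 fold change 2.96, SE 0.358), Retsat (log2 fold change -1.48, SE 0.0949) and Ech1 (log2 fold change -1.47, SE 0.114) changed by most. Creb3l3 was very low, at medians of 0.0762 CPM in CON and 0.95 CPM in dnOGAh hearts. Ppara itself was lower (log2 fold change -0.99, SE 0.106), as were Ppargc1a, which encodes PGC-1α (-0.86, SE 0.1002), and Esrra, which encodes ERRα (-0.72, SE 0.0735).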

How the data were processed

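Ventricular RNA of 60 mouse hearts (5 for each of 2 genotypes at 6 times) was sequenced from polyA libraries made with a directional kit, and replicates are separate hearts. The authors deposited raw read counts per Ensembl gene. The submitters' processing notes list HTSeq 2.0.2, STAR 2.7.10b and Trim Galore 0.6.7, with GRCm39 as the build; the strand setting of the counting is not given in the sources used here. The 5 summary rows were left out of library sizes (reads not uniquely aligned came to 11.0% to 39.4% of a library's reads, ambiguous reads to 3.14% to 7.13%, and reads in no feature to 3.61% to 14.3%). Reads of near-identical genes are lost to these rows, which lowers such counts. Samples labelled ZT24 were read as ZT0. Gene symbols were given for 52093 of 53700 IDs.

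In R 4.3.3, counts were fitted with edgeR 4.0.16 over the 12 groups (filterByExpr with a minimum count of 10, TMM, quasi-likelihood test), with p-values adjusted by Benjamini-Hochberg over all 18119 genes and called under 0.05. The genotype effect was averaged over 6 times and tested at each. A time effect and the interaction were tested in the same fit. The 24 h rhythm difference was tested in a separate edgeR fit with terms for genotype, cosine and sine. JTK cycle used 6 lags of 2 h on CPM, and log2 CPM had a prior count of 2. Alternatives used limma 3.58.1 and DESeq2 1.42.0, other scalings and filters, and left-out libraries. Scripts were tested on simulated data. No 2 libraries of a group were alike within counting noise (120 pairs). Promoters came from RefSeq (GRCm38.p6) and exon overlaps from GENCODE M21 (GRCm38), not the build of the counts.

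Members and lists were chosen with earlier results of these data known. All 37 members are named. Full ranges were set for the member of each role with the largest genotype change, those called against the direction of most and those called over time, with up to 3 genes of each list by size of change, and Oga. Ranges of other members, and Ppara, Ppargc1a, Esrra and Adipoq, were added after values were seen.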

Additional observations from a re-analysis of the deposited data

Results flagged for a closer look

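In 11 quantities (the mean log2 CPM of the 37 genes and the CPM of 10 of them) the highest or lowest of the 5 hearts of a group was compared with the others by Dixon's criterion. Of 132 groups 18 had a heart set apart, where chance gives about 1 in 20. CON ZT4 replicate 4 accounts for 5, all low. Its mean log2 CPM over the 37 was 6.83 (the other 4 hearts 7.67 to 7.95), Cpt2 was at 108 CPM (278 to 319.8), Hadh at 239 (648 to 770.2), Eci1 at 162 (338 to 399.6) and Etfa at 249 (709.6 to 773). It is the library with 77.6% mitochondrial counts.

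The library labelled dnOGAh ZT12 replicate 3 accounts for 4, all high. Mlycd was at 102 CPM (the other 4 hearts 20.9 to 41.3), Cpt2 at 292 (55.2 to 115), Eci1 at 465 (65.2 to 140.2) and Etfa at 595 (117 to 238). It is the library with Oga in the CON range.

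The other 9 fell in 8 libraries. The mean log2 CPM of the 37 was 7.66 in CON ZT12 replicate 2 (others 7.89 to 7.94) and 6.18 in dnOGAh ZT0 replicate 5 (6.80 to 7.02). Angptl4 was at 101 CPM in dnOGAh ZT8 replicate 5 (22.6 to 32.9), and Fabp5 at 118 CPM in dnOGAh ZT4 replicate 3 (58.0 to 75.2). In CON ZT16 replicate 4, Fabp3 was at 6049 CPM (4076 to 4549) and Hadh at 748 CPM (646 to 675). Cpt2 was at 295 CPM in CON ZT0 replicate 2 (333 to 346), Etfa at 366 CPM in dnOGAh ZT20 replicate 5 (149 to 202) and Ucp3 at 39.9 CPM in CON ZT16 replicate 5 (34.0 to 35.4).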

How the results depend on the processing

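The count of 33 lower members over the day held in every alternative run except a mean of at least 1 CPM (32, Cpt1b filtered out) and scaling to the cardiomyocyte structural genes (24), where 6 were higher in place of 2. Over the day that scaling gave 5.15% of all genes lower and 82.3% higher. With that scaling Slc27a1 (0.32) and Eci2 (0.11) reversed, and Acot13 changed sign without passing (0.0900, adjusted p = 0.07 in edgeR). Members lower at ZT0, ZT4, ZT8, ZT12, ZT16 and ZT20 numbered 20, 13, 18, 16, 20 and 20 with it, and 4, 6, 5, 4, 4 and 4 were higher. Shares of all genes at each time were not worked out for the alternative runs. Leaving out 1 replicate number at a time gave 2 to 3 higher over the day, 31 to 32, 26 to 31, 31 to 32, 22 to 32, 31 to 32 and 30 to 32 lower at the 6 times, and 0 to 1, 1 to 2, 2 to 3, 0 to 2, 0 to 2 and 0 to 2 higher. Relative log expression factors, DESeq2 and the fit without the 3 libraries that stood apart each gave 2 higher at ZT0 and at ZT16. At ZT16 a mean of at least 1 CPM and the fit without dnOGAh ZT12 replicate 3 gave 2 too, and no filter and removal of mitochondrial transcripts gave 0. Limma-voom gave 1 higher at ZT12 and at ZT20. Cpt1a was called higher over the day with relative log expression factors (0.15), DESeq2 (0.15) and without replicate 4 (0.16) or the 3 libraries (0.16). The time effect in dnOGAh hearts was called for 1 member in limma-voom, without dnOGAh ZT12 replicate 3 and without the 3 libraries, and for 0 to 1 with a replicate number left out. Members rising with Oga numbered 22 without dnOGAh ZT12 replicate 3 (8.78% of all genes), 24 without the 3 libraries (12.6%) and 0 to 25 with a replicate number left out. In the same order 1 (7.63% of all genes), 1 (12%) and 0 to 1 fell. The Ucp2 slope ran from -0.39 to 0.0877, the latter without replicate 5 and with dnOGAh ZT12 replicate 3 kept. Without overlap between genotypes were 0 members (0.121% of all genes), 3 without dnOGAh ZT12 replicate 3 (0.74%) and 24 without the 3 libraries (4.27%). The alternatives on the Oga slope and overlaps were chosen after seeing the data; the causes of these shifts were not tested. Replicate numbers did not pair most of the hearts (5 of 30 same-numbered pairs correlated over 0.1, median 0.033, highest 0.551). ZT4 replicate 4 of both genotypes shared the high mitochondrial share given above. The replicate block gave 33 lower and 2 higher. Counts set the limit for Cpt1b, at 0 CPM in the lowest library of each genotype.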
